A study of Mus musculus with 96 samples.

Results

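The 6 genes described here are the repressors of the circadian clock Per1, Per2, Per3, Cry1, Cry2 and Ciart. They were taken as the rows of the count table whose Ensembl identifiers carry these symbols in the GENCODE M21 annotation, 6 of 54833 features, and all 6 passed the filter on low counts in each tissue. RNA was sequenced from forebrain, cerebellum, liver and kidney of male wild-type (WT) C57BL/6 mice aged 6 to 8 weeks and housed in 12 h of light and 12 h of darkness, and the study places the sampling of all groups in constant darkness. Control mice (CON) were left alone, whereas sleep-deprived mice (SD) spent 10 h of their resting phase in a slowly turning drum with food and water, so that lost sleep and forced walking cannot be told apart here. Sampling followed at CT4, CT8, CT12, CT16, CT20 and CT24 (CT, circadian time in h), so that 6 times, 4 tissues and both conditions gave 48 groups of 2 libraries, 96 in all. The sources used here do not say whether the 4 tissues of a time came from the same mice. The study calls the 2 libraries of a group biological repeats.

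The mammalian clock runs on a feedback loop in which the activators CLOCK and ARNTL (also called BMAL1) bind E-box sequences and switch on the Period and Cryptochrome genes, whose proteins later enter the nucleus together and shut the activators off. PER1, PER2 and PER3 act as scaffolds that bring casein kinase to the complex, CRY1 and CRY2 bind the activators and block them, and CIART (also called CHRONO) is a further repressor of the same activators. Beside this loop, Per1 is known as a gene that answers quickly to light, stress hormones and activity through other elements of its promoter, and the D-box factors TEF and HLF, opposed by NFIL3, form a second arm of timing.

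On build GRCm38, Per1 (ENSMUSG00000020893) lies at chr11:69095217-69109960 on the plus strand, and the other members lie on minus strands. Per2 (ENSMUSG00000055866) is at chr1:91415982-91459324, Per3 (ENSMUSG00000028957) at chr4:151003652-151044665 and Cry1 (ENSMUSG00000020038) at chr10:85131700-85185064. Cry2 (ENSMUSG00000068742) is at chr2:92403646-92434043 and Ciart (ENSMUSG00000038550) at chr3:95878503-95882251. Because the members answer to different elements, the 250 bases before an annotated start site are shown for the members that RefSeq lists (build GRCm38.p6, 5 of 6 members). Matches on either strand are in capitals, namely the E-box CACGTG, the E'-box CACGTT, which reads AACGTG on the other strand, and the D-box TTATGTAA. The Per1 stretch is chr11:69098699-69098948 on the plus strand. The Per3 stretch is chr4:151044666-151044915, that of Cry1 chr10:85185055-85185304, that of Cry2 chr2:92434070-92434319 and that of Ciart chr3:95882229-95882478, each on the minus strand.
Per1: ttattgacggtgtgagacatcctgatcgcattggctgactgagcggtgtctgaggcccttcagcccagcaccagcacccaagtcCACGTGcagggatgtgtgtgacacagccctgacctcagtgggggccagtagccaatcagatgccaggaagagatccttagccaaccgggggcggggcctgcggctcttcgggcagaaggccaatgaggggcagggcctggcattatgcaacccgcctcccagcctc
Per3: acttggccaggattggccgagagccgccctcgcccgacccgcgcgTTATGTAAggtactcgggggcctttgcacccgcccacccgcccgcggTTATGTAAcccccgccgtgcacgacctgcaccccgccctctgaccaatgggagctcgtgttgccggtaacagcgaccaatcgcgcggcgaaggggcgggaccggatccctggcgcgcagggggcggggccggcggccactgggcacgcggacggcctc
Cry1: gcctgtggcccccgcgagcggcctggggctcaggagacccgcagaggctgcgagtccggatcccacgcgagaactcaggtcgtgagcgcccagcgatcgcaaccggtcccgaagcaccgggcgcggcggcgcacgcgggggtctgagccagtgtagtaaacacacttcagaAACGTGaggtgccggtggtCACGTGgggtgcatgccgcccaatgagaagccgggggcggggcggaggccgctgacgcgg
Cry2: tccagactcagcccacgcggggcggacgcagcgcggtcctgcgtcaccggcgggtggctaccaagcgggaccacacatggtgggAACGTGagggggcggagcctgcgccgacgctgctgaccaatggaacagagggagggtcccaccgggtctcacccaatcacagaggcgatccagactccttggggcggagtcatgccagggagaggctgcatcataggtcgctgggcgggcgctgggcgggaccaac
Ciart: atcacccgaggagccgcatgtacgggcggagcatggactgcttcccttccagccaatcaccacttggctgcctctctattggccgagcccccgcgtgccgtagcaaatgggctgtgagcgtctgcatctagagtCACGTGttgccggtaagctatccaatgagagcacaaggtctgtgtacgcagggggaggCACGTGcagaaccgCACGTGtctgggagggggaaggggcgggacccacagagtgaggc

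In these windows Ciart had 3 E-boxes, Per1 had 1, Cry1 had 1 E-box and 1 E'-box, Cry2 had 1 E'-box and Per3 had 2 D-boxes. No matches overlapped each other. Over 32851 promoters of this length, 6.02% held an E-box, 3.85% an E'-box and 0.819% a D-box, while 0.0609% held 3 or more E-boxes and 0.0183% held 2 or more D-boxes. The cyclic AMP element TGACGTCA was in 1.55% of all promoters and in 0 of these windows. A second annotated start site of Per1, whose window is chr11:69099902-69100151, had none of the 4 motifs, and the Per2 promoter was not analysed here. The windows hold at most 23 annotated exonic bases, the Per3 window lies inside an intron of Camta1 on the same strand, and the Ciart window lies inside the antisense gene C920021L13Rik. The Per1 window lies within the annotated gene, whose first start is further upstream. A match describes letters only.

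Library depth, the sum of gene counts, ran from 24.8 to 58.5 M, so that 1 CPM (a count scaled to the depth of its library in M) stood for about 24.8 to 58.5 counts. The summed level of 3 liver markers was at 64233 CPM or more in liver and at 107 CPM or less elsewhere. That of 4 kidney markers was at 7899 CPM or more in kidney and at 0.965 CPM or less elsewhere. Brain markers were less exclusive. The 4 cerebellum markers summed to 957 CPM or more in cerebellum and up to 559 CPM in kidney, where Calb1 reached 558 CPM. Cbln3 among them was at most 0.444 CPM in cerebellum. The 4 forebrain markers summed to 678 CPM or more in forebrain and up to 423 CPM in cerebellum. For 20 of 24 kidney libraries the sample title and the listed characteristics disagree, 10 of them on the condition. Disagreement on time was counted where the listed time was not 4 h before that of the title. In forebrain, cerebellum and liver, every listed time was 4 h before that of the title. Titles were followed throughout. All circadian times given here therefore rest on the titles, as does each kidney value by condition or time. The cerebellum CON library CT8 replicate 1 stood apart, with reads on antisense genes at 21% of those on their partner genes against at most 5.21% in the other cerebellum libraries. The forebrain CON library CT8 replicate 1 had a summed level of 4 forebrain markers of 678 CPM, where the median of the CON libraries was 1381 CPM. Summed leukocyte markers were lower in SD than in CON, at 40.8 to 76.9 against 87.0 to 172 CPM in liver and 30.8 to 48.1 against 48.9 to 84.3 CPM in kidney, and their part in the results was not tested. In bulk tissue, fewer cells of a type and less RNA per cell cannot be told apart.

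The 6 repressors were all expressed in all 4 tissues, and their order by level changed from tissue to tissue. Levels of different genes are given as CPM per kb of exon, as the mean ± standard deviation over the 12 CON libraries of a tissue, where the spread includes the daily rhythm. In forebrain, Cry2 was highest at 20.8 ± 1.31 CPM per kb, followed by Per1 at 14.5 ± 2.63 and Per2 at 10.1 ± 2.48. Per3 at 7.12 ± 1.10 and Cry1 at 6.46 ± 0.990 came next and lay within their spread of each other, and Ciart was lowest at 4.30 ± 1.84 CPM per kb. Cry2 thus stood above the spread of every other member in this tissue.

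In cerebellum, Cry1 led at 17.7 ± 3.17 CPM per kb, next to Cry2 at 16.5 ± 2.25. Per2 at 13.5 ± 7.07, Per1 at 11.7 ± 3.02 and Per3 at 10.7 ± 3.09 followed, and neighbours in this order did not differ beyond their spread until Ciart at 3.73 ± 1.64. In liver, Cry1 at 11.2 ± 6.82 and Per2 at 10.6 ± 6.33 CPM per kb were highest and Ciart was lowest at 1.98 ± 2.60. Between them lay Cry2 at 6.83 ± 1.64, Per3 at 4.48 ± 4.21 and Per1 at 4.40 ± 3.37. In kidney, Per2 was highest at 10.4 ± 5.31, then Per1 at 6.70 ± 3.92, Cry1 at 5.67 ± 3.2, Per3 at 5.22 ± 3.04, Cry2 at 4.79 ± 1.35 and Ciart at 1.47 ± 1.6 CPM per kb. Ciart was lowest in all 4 tissues, and the order of the other members in liver and kidney lay within their daily spread. With the length of the longest transcript in place of all exons, 2 of 6 members kept their rank in cerebellum and 2 of 6 in kidney.

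**Figure D1:**
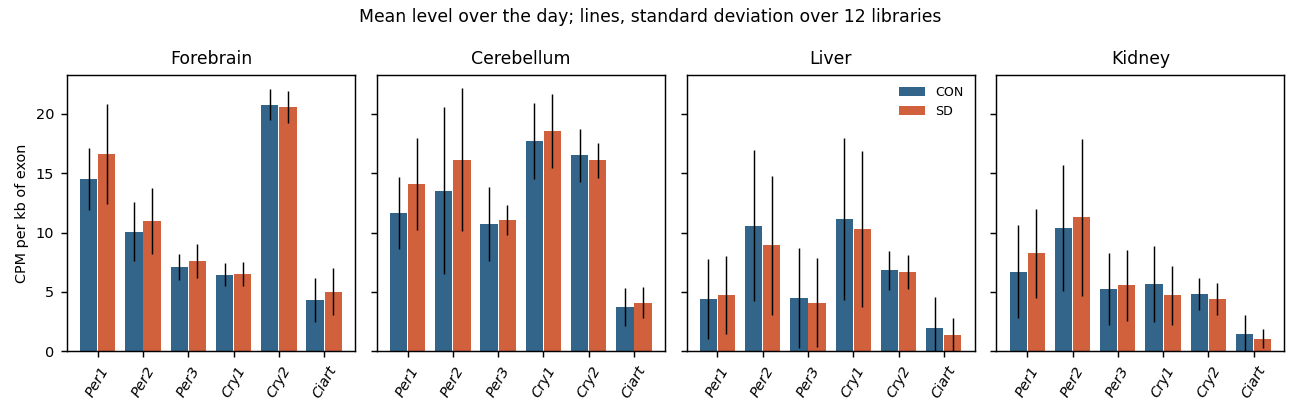
Mean level of each member in CON and SD, in CPM per kb of exon, by tissue. Bars are means over 12 libraries and lines the standard deviation, cut at 0 where they would pass it. Cry2 is the tallest bar in forebrain at 20.8 in CON, while Cry1 and Per2 lead in liver at 11.2 and 10.6.

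Between tissues, the mean level of a gene over the day was compared in one edgeR fit over the 48 CON libraries. Most features differed between tissues, so the member counts are close to the background. Forebrain against liver called 6 of 6 members beside 86.0% of 26536 genes, forebrain against kidney 5 beside 84.9%, cerebellum against kidney 5 beside 87.0%, cerebellum against liver 5 beside 87.8%, forebrain against cerebellum 4 beside 71.2% and liver against kidney 4 beside 69.2%. Cry2 differed in all 6 pairs, in the order forebrain, cerebellum, liver, kidney. Its log2 difference was 2.11 ± 0.07 (SE) between forebrain and kidney (adjusted p = 1.22e-27) and 0.50 ± 0.07 between forebrain and cerebellum (adjusted p = 5.82e-08). Cry1 was lower in forebrain than in cerebellum, by a log2 difference of -1.29 ± 0.12 (adjusted p = 4.08e-13). Per2, the member with the most even level, gave log2 differences from -0.42 to 0.48, and those of Per2 between forebrain and liver, cerebellum and liver, and liver and kidney changed sign when library sizes replaced TMM scaling.

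The next question was how strongly each repressor cycled in undisturbed mice. In CON liver, Ciart had the widest swing, a low point at CT8 and a high point at CT16. Liver Ciart was at 0.245 and 0.0299 CPM in the CON libraries of CT8, the latter a single read, whereas at CT16 they held 16.1 and 15.4 CPM. It was back at 1.92 and 1.65 CPM by CT24. The swing of the fitted 24 h cosine, from trough to peak on the log2(CPM + 0.1) scale, was 5.67 with a 95% interval of 3.96 to 7.38.

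The PER scaffolds followed the same day in liver. Per3 was at 5.11 and 5.0 CPM at CT8 and at 136 and 91.4 CPM at CT16. Per1 was at 3.55 and 4.04 CPM at CT8 and at 51.7 and 63.0 CPM at CT16. Per2 was at 24.3 and 15.9 CPM at CT8, at 97.5 and 88.6 CPM at CT16 and still at 95.8 and 122 CPM at CT24. Low and high times of these genes did not overlap, and the fitted swings were 3.79 (2.60 to 4.97) for Per3, 2.96 (1.21 to 4.70) for Per1 and 2.54 (1.74 to 3.33) for Per2.

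The CRY blockers differed from each other. Liver Cry1 was at 78.3 and 69.7 CPM at CT4, at 11.6 and 9.54 CPM at CT12 and at 57.8 and 46.5 CPM at CT24, a swing of 2.60 (1.94 to 3.26). Liver Cry2 moved between 29.9 and 65.5 CPM over the CON libraries, a swing of 0.65 (0.15 to 1.15), the shallowest of the 6 in this tissue. Cry1 was thus lowest at CT12, before the Period genes reached their high values, and highest at CT4, when all 3 were below theirs.

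CON kidney gave like values. Kidney Ciart was at 0.480 and 0.300 CPM at CT8 and at 9.57 and 10.4 CPM at CT16, with a swing of 4.40 (3.35 to 5.45). Kidney Cry1 was at 4.65 and 5.09 CPM at CT12 and at 31.7 and 33.0 CPM at CT24, a swing of 2.61 (1.96 to 3.25). Kidney Per3 was at 13.8 and 16.9 CPM at CT8 and at 99.7 and 73.6 CPM at CT16, a swing of 2.44 (1.95 to 2.93). Per2 had a swing of 2.33 (1.78 to 2.89), Per1 of 1.68 (0.59 to 2.78) and Cry2 of 1.07 (0.68 to 1.47), so Ciart again moved most and Cry2 least.

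**Figure D2:**
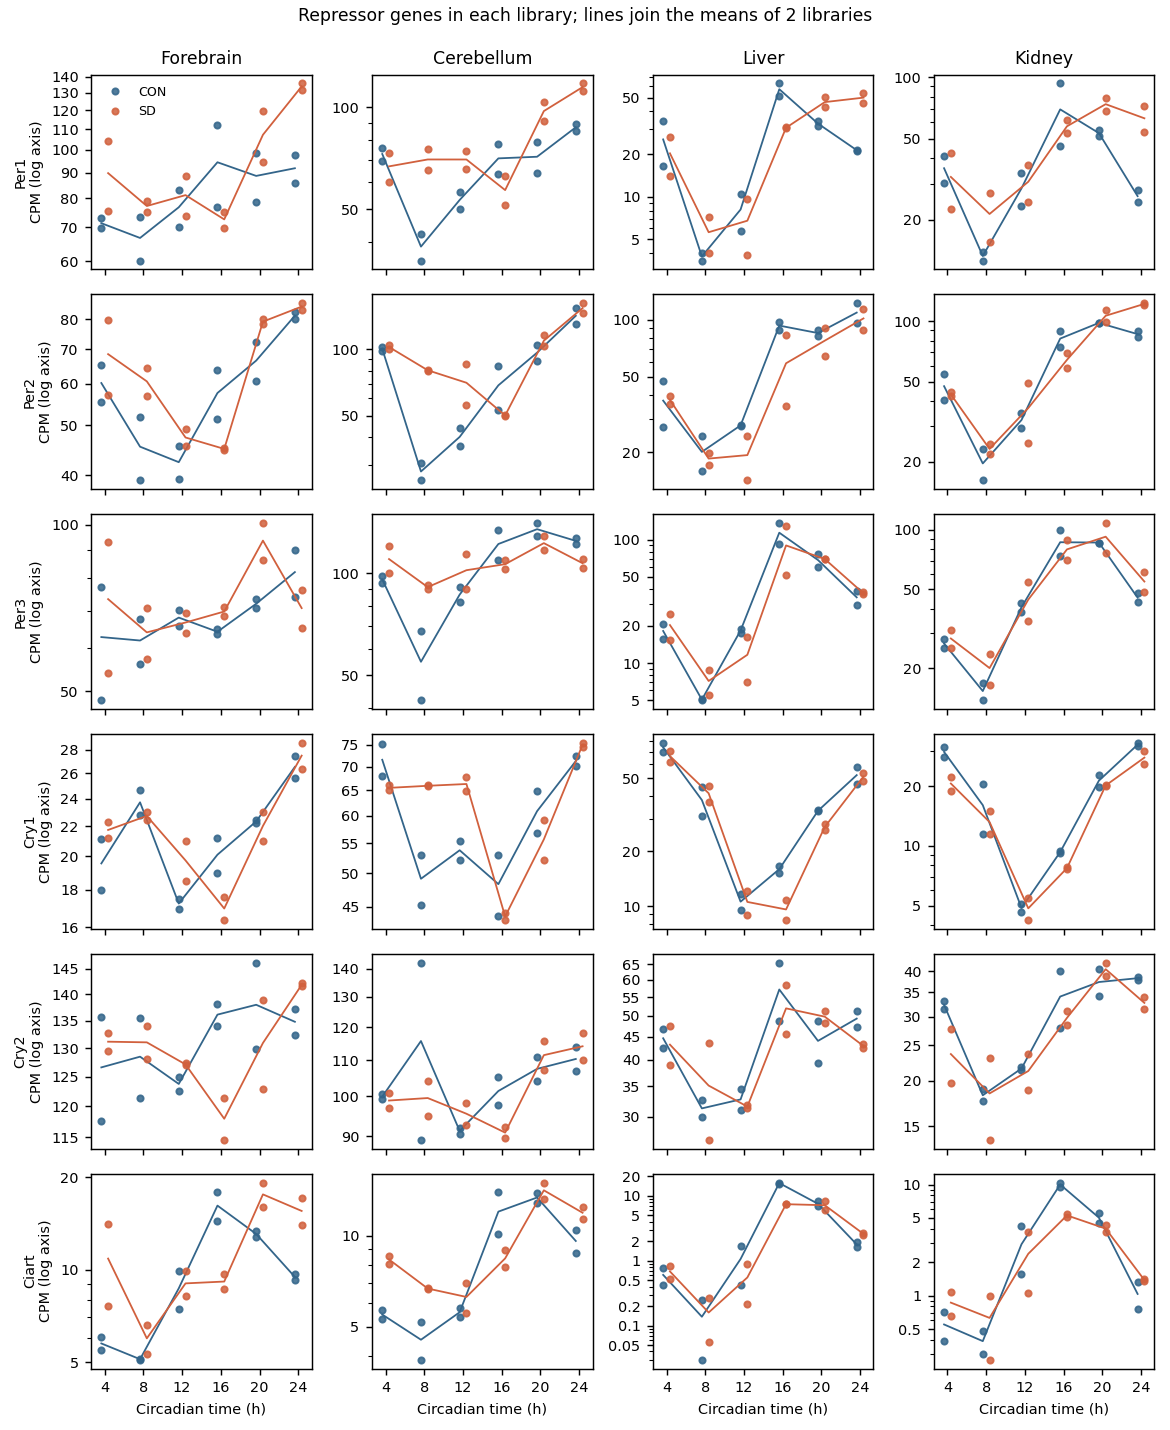
Level of each member in every library, in CPM on a log axis whose range differs between panels, against circadian time in h, for the 4 tissues. Points are single libraries, set slightly apart by condition, and lines join the means of 2 libraries. Liver Ciart rises from 0.245 and 0.0299 CPM at CT8 to 16.1 and 15.4 CPM at CT16 in CON, while forebrain Cry2 stays within a narrow band.

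In the brain tissues, forebrain is given first. Forebrain Ciart was at 5.14 and 5.10 CPM at CT8 and at 14.4 and 17.9 CPM at CT16 in CON, a swing of 1.62 (1.30 to 1.94). Forebrain Per2 was at 39.3 and 45.5 CPM at CT12 and at 82.5 and 79.9 CPM at CT24, a swing of 0.88 (0.56 to 1.20). The forebrain swings of Per1, Cry1, Per3 and Cry2 were 0.49, 0.37, 0.29 and 0.15, and the intervals of Per3 and Cry2 included 0.

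In CON cerebellum, Per2 had the largest fitted swing. It was at 25.4 and 30.4 CPM at CT8 and at 130 and 154 CPM at CT24, a swing of 2.12 (1.39 to 2.86). Ciart rose from 5.17 and 3.89 CPM at CT8 to 13.9 and 12.9 CPM at CT20, a swing of 1.67 (1.33 to 2.01). Per3 was at 42.3 and 67.4 CPM at CT8 and at 140 and 129 CPM at CT20, a swing of 1.18 (0.69 to 1.67). The low point of all 3 genes falls in the group that holds the library set apart above, and without that library their swings were 1.92, 1.78 and 0.90. The swings of Per1, Cry1 and Cry2 were 0.92, 0.58 and 0.15, and 0.75, 0.56 and 0.30 without it.

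The edgeR cosinor test, which asks whether a 24 h wave explains a gene's level, called 6 of 6 members in CON liver beside 11.7% of all genes tested and 6 of 6 in CON kidney beside 4.51%. In CON cerebellum it called Per2, Per3 and Ciart beside 0.257% of genes, and in CON forebrain Per2 and Ciart beside 1.59%. Under sleep deprivation it called 5 of 6 in liver beside 13.8%, with Cry2 at an adjusted p of 0.0862, and 6 of 6 in kidney beside 4.73%. In the brain it then called Ciart alone, with adjusted p = 0.0390 in forebrain, where 0.039% of genes passed, and adjusted p = 0.0113 in cerebellum, where 0.018% passed. DESeq2 called 3 members in SD forebrain, beside 129 of 23078 genes, 2 in SD cerebellum, beside 144 of 22218, and 5 in CON cerebellum, beside 1261. The smaller brain counts are not by themselves a difference between conditions, since Per2 kept a swing of 0.89 in SD forebrain (adjusted p = 0.0637 in edgeR) against 0.88 in CON. Without the forebrain CON library CT8 replicate 1, and likewise without the cerebellum CON library CT8 replicate 1, Per2 and Ciart passed in SD of that tissue. The SD forebrain count changed for 18 of 24 libraries left out in turn, and the SD cerebellum count also changed without SD CT20 replicate 2. The share of all genes called in the fits without a library is not given here.

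The rank-based JTK_CYCLE procedure was stricter with 12 libraries per tissue and condition. Its smallest possible p is 5.77e-05, after correction for the 6 phases tried and before adjustment over genes. It called Per2 in CON kidney (adjusted p = 0.0365) beside 0.158% of genes and Cry1 in SD liver (adjusted p = 0.0284) beside 1.76%. It called no member in CON liver, where 0.147% of genes passed, and none in SD kidney or in the brain tissues of either condition, where 0.0% passed. With either replicate left out, 6 libraries per tissue and condition remained. The smallest possible p was then 0.0667, so no gene could pass and these calls could not be checked in that way. Cry1 in SD kidney reached the smallest possible p but had an adjusted p of 0.0777.

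Liver and kidney shared their first and last peak. Peak times here are in the CT of the sample titles, from which the listed times differ as described above. By the fitted cosine, CON liver ran from Ciart at CT18.58 and Per3 at CT18.97 through Per1 at CT20.13, Per2 at CT20.52 and Cry2 at CT20.85 to Cry1 at CT2.13 of the next cycle. CON kidney ran from Ciart at CT17.08 through Per3 at CT18.59, Per1 at CT18.68, Per2 at CT20.60 and Cry2 at CT21.63 to Cry1 at CT1.03. Cry1 peaked 7.55 h after Ciart in liver (95% interval 5.95 to 9.16) and 7.95 h after it in kidney (6.57 to 9.33). Per2 followed Per3 by 1.55 h (0.34 to 2.76) in liver and by 2.0 h (1.10 to 2.90) in kidney. Neighbours in the order were often not separable, as with Per3 and Ciart in liver, 0.40 h apart (-0.45 to 1.24), although in kidney the same pair was 1.52 h apart (0.70 to 2.34).

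In the brain the order was similar where it could be read. Per2 peaked 4.64 h (3.13 to 6.15) after Ciart in CON forebrain and 3.17 h (1.47 to 4.86) after it in CON cerebellum. Cry1 followed Ciart by 6.15 h (2.42 to 9.88) and 5.44 h (3.24 to 7.64). For reference, and chosen after its values were seen, the activator gene Arntl peaked at CT5.36 in CON liver, CT5.22 in kidney, CT5.75 in forebrain and CT8.82 in cerebellum. By these fitted values Cry1 peaked between Per2 and Arntl in all 4 tissues, although in CON forebrain the peak of Per2 minus that of Cry1 was -1.51 h with an interval of -5.38 to 2.36, and Cry1 did not pass the cosinor test of edgeR in CON forebrain (adjusted p = 0.190) or CON cerebellum (adjusted p = 0.0940). Since times were 4 h apart, the peaks are interpolated, and the time with the highest mean put Cry1 12 h after Ciart in CON liver and 8 h after it in CON forebrain.

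**Figure D3:**
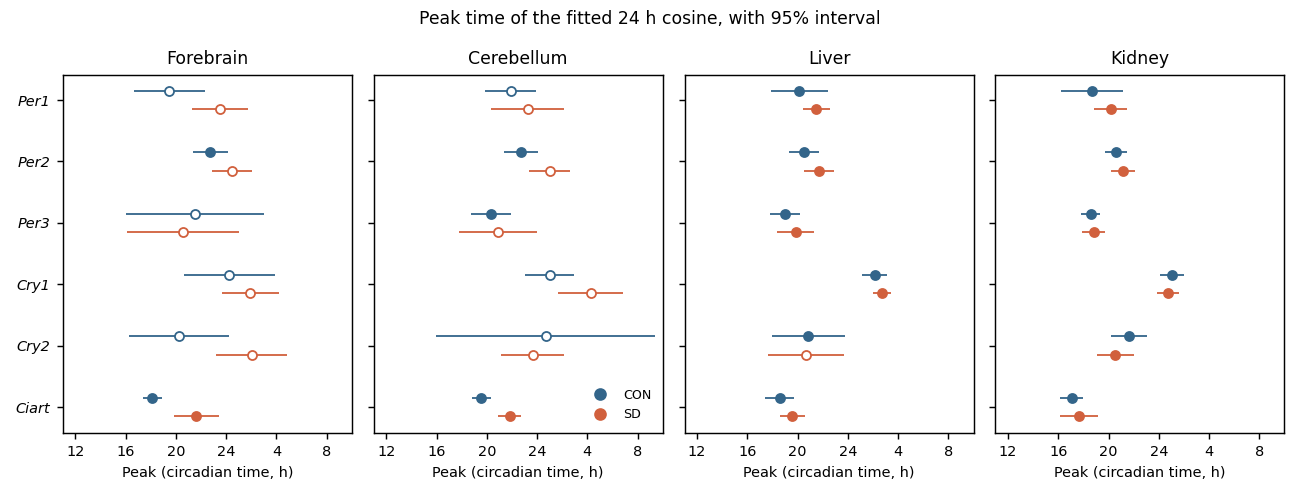
Peak of the fitted 24 h cosine for each member, in h of circadian time, by tissue, with 95% intervals from 12 libraries each in CON and SD. Filled points passed the edgeR cosinor test. Cry1 is the latest member in liver and kidney, 7.55 and 7.95 h after Ciart in CON.

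Whether a rhythm differed between tissues was tested in CON by comparing the cosine and sine terms of 2 tissues in edgeR. Forebrain and liver differed for Per2, Per3, Cry1 and Ciart, beside 11.9% of genes. Forebrain and kidney differed for Per3, Cry1 and Ciart beside 0.554%, cerebellum and liver for the same 3 genes beside 5.6%, and cerebellum and kidney for Cry1, Cry2 and Ciart beside 0.294%. No member differed between forebrain and cerebellum, where 0.275% of genes passed and the smallest unadjusted member p was 0.00910, or between liver and kidney, where 2.83% passed and the smallest was 0.00700. Ciart had the largest size of difference in each of the 4 pairs of a brain tissue and a peripheral one, from 3.04 between forebrain and kidney to 4.24 between cerebellum and liver, in log2 from trough to peak. Per1 was called in none of the 6 pairs. Without the cerebellum CON library CT8 replicate 1, Per2 (adjusted p = 0.0336 in edgeR) and Cry2 (adjusted p = 0.0177) also passed between forebrain and kidney. Without the liver CON library CT4 replicate 1, Per1 and Per2 also passed between cerebellum and liver, and Per3 and Ciart between liver and kidney, where Cry1 passed without the kidney CON library CT8 replicate 1.

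**Figure D4:**
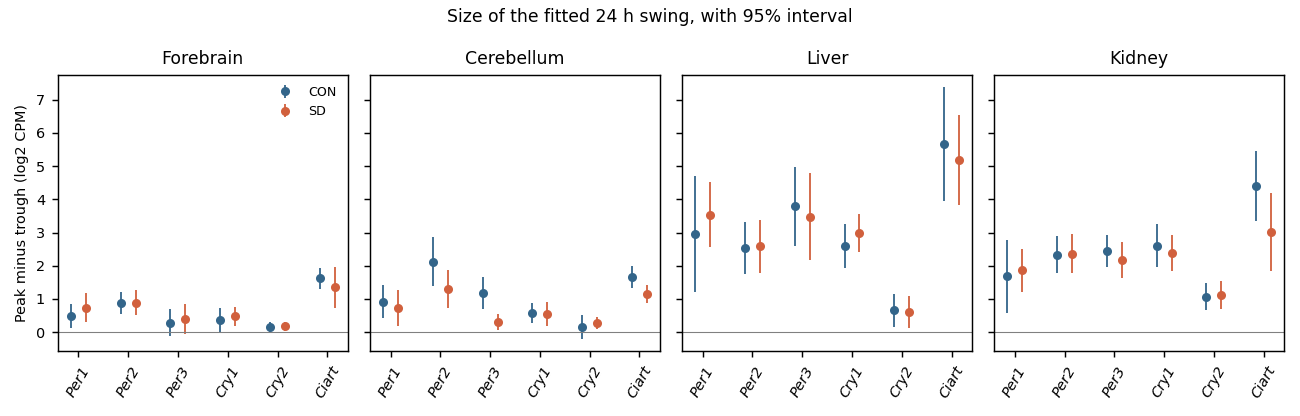
Size of the fitted swing from trough to peak, in log2 CPM, for each member, tissue and condition, with 95% intervals from 12 libraries. Ciart has the largest swing in liver, 5.67 in CON, and Cry2 the smallest in each tissue in CON, from 0.15 in both brain tissues to 1.07 in kidney, where the cerebellum value is 0.30 without CON CT8 replicate 1.

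With the filter on low counts, no repressor differed in mean level between SD and CON past the threshold. Averaged over the 6 times, log2 differences of SD minus CON ran from -0.02 to 0.25 in forebrain, from -0.05 to 0.35 in cerebellum, from -0.13 to 0.27 in liver and from -0.26 to 0.32 in kidney. The median over the 6 members was 0.10, 0.14, 0.02 and -0.03, beside 0.00, -0.01, 0.01 and 0.01 over all genes. In edgeR, 0 of 6 members were called in each tissue, beside 0.0303% of genes in forebrain, 0.0% in cerebellum, 18.2% in liver and 2.3% in kidney. At an unadjusted p under 0.05 there were 0, 2, 0 and 1 members. Over all genes these were 1479 of 23078, 757 of 22218, 6081 of 19708 and 2812 of 21528. DESeq2 called 0 members in each tissue. Without the filter, edgeR called Per1 in liver, beside 3741 of 32589 genes, and Per1 and Cry1 in kidney, beside 1043 of 36128.

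Of the 24 member values, that of kidney Cry1 had the smallest adjusted p. Kidney Cry1 ran from 4.65 to 33.0 CPM in CON and from 4.24 to 29.9 CPM in SD, with a log2 difference of -0.26 ± 0.08 (SE, unadjusted p = 0.00498, adjusted p = 0.128 in edgeR). It passed with 1 library left out, CON CT8 replicate 2 (-0.31, adjusted p = 0.0279). Per1 was higher in SD in all 4 tissues, by 0.18 ± 0.10 in forebrain, 0.27 ± 0.10 in cerebellum, 0.27 ± 0.21 in liver and 0.32 ± 0.16 in kidney, none of which passed. Liver values are relative to TMM scaling, since library sizes alone moved the median log2 difference of all liver genes from 0.01 to -0.13, which turned the signs of liver Per3 and Cry2.

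Tested at the 6 times together, 0 of 6 members passed in any tissue in edgeR, beside 0.0% of genes in forebrain and cerebellum, 3.56% in liver and 0.725% in kidney. At an unadjusted p under 0.05 there were 3 members in forebrain, 5 in cerebellum, 1 in liver and 1 in kidney. Over all genes, 2743 of 23078, 2036 of 22218, 3347 of 19708 and 2277 of 21528 had such a p-value. DESeq2 called Ciart in forebrain, beside 936 of 23078 genes, and Per1, Per2, Per3 and Cry1 in cerebellum, beside 244 of 22218. It called 0 members in liver, beside 2017 of 19708 genes, and 0 in kidney, beside 694 of 21528. The counts depended on the filter on low counts in all 4 tissues. With every gene of at least 1 count kept, edgeR called 2 members in forebrain, beside 729 of 39470 genes, 3 in cerebellum, beside 3552 of 37212, 5 in liver, beside 2873 of 32589, and 6 in kidney, beside 2705 of 36128, and the cause of this change was not tested.

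At single times, calls among the members came from 1 group. In cerebellum at CT8, Per2 was at 25.4 and 30.4 CPM in CON and at 79.9 and 80.9 CPM in SD, a log2 difference of 1.47 ± 0.20 (SE, adjusted p = 0.0305 in edgeR). Per1 was at 35.3 and 42.3 CPM in CON and at 65.1 and 75.1 CPM in SD, a difference of 0.79 ± 0.13 (adjusted p = 0.0305). Per3 was at 42.3 and 67.4 CPM in CON and at 89.9 and 92.0 CPM in SD, a difference of 0.68 ± 0.15 (adjusted p = 0.0305). All 3 Period genes were thus higher in both SD libraries than in both CON libraries, as were 18.8% of the 22218 genes tested.

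Cry1 rose with them in cerebellum at CT8, from 45.3 and 53.0 CPM in CON to 65.8 and 66.0 CPM in SD, a difference of 0.36 ± 0.10 (adjusted p = 0.0350 in edgeR). Ciart at 5.17 and 3.89 CPM against 6.67 and 6.71 CPM had an adjusted p of 0.135. Cry2 at 142 and 89.2 CPM against 95.1 and 104 CPM overlapped between conditions, with an adjusted p of 0.251. These 4 calls of 6 members, all higher in SD, stand beside 10.3% of all genes called at this time. Of the 2281 genes so called, 120 were higher in SD.

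The calls rested on which libraries were kept. Each fit without a library leaves a group of 1, so its spread comes from the groups that still hold 2. The numbers of genes passing in such fits are therefore a description only. Without CON replicate 1, the library with the high antisense share, edgeR called 0 of 22828 genes at this time, with 872 at an unadjusted p under 0.05. Per2 then had a log2 difference of 1.41 ± 0.24 (adjusted p = 0.457), Per1 of 0.74 ± 0.16 and Per3 of 0.44 ± 0.14 (adjusted p = 0.998 for both). At CT8 alone, the Per2 difference was 1.56 ± 0.25 without CON replicate 2, and 1.5 ± 0.24 and 1.46 ± 0.24 without each SD library. Most genes tested passed at CT8 without CON replicate 2, and no gene did without either SD library. The members passing the joint test over 6 times changed without CON CT8 replicate 1, CON CT8 replicate 2 or CON CT16 replicate 1. The share of all genes passing the joint test in these fits is not given here, so those changes are no result about the members. The size of the Per2 and Per1 differences therefore changed little between these choices, while their adjusted p-values moved across the threshold.

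The 2 CON libraries of this group also differed in choroid plexus RNA, the tissue of the brain ventricles. The summed level of its 3 markers Ttr, Folr1 and Kl was 1.82 and 1822 CPM in the CON libraries of CT8 and 593 and 422 CPM in the SD libraries. Over all cerebellum libraries it ran from 1.22 to 1822 CPM in CON and from 1.83 to 2978 CPM in SD, with medians of 6.53 and 685 CPM, and its defining gene Folr1 was at or near 0, at most 0.149 CPM. Its part in the result was not tested.

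At the other times and tissues no member passed in edgeR. In forebrain, where 0 of 36 combinations of member and time were called and 9 had an unadjusted p under 0.05, the share of genes called was 0.00433% at CT16, 2.28% at CT20 and 0.0% at the other times. In liver, with 0 called and 2 such p-values, it was 0.0101% at CT4, 0.416% at CT8, 0.238% at CT24 and 0.0% at the rest. In kidney, with 0 called and 4 such p-values, it was 0.00465%, 0.00929%, 0.0372%, 0.00465%, 0.0139% and 0.33% from CT4 to CT24. In cerebellum away from CT8 it was 0.0%. By time, 675 to 4973 of 23078 forebrain genes had an unadjusted p under 0.05. In liver 1509 to 2726 of 19708 genes did, and in kidney 1400 to 2377 of 21528. DESeq2 also called 0 members at single times in forebrain, liver and kidney, and 4 in cerebellum, all at CT8, where it called 3090 of 22218 genes. Without the filter, 8 combinations passed in liver and 8 in kidney, among them Per1 at CT24 and Ciart at CT16 in both. Over all genes, 1102 of 32589 then passed in liver at CT24 and 767 at CT16, and in kidney 1044 of 36128 at CT24 and 503 at CT16.

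Some of these time points were ordered alike in every tissue. This was noticed after the values had been seen. For each member and time it was asked whether both SD libraries lay above, or both below, both CON libraries in all 4 tissues. Of 36 combinations, 5 did so, namely Per1 above at CT8, Per2 and Ciart below at CT16, and Per1 and Ciart above at CT24. Over 16981 genes, such an order above was found for 0.1% at CT4, 0.106% at CT8, 0.0942% at CT12, 0.147% at CT16, 0.253% at CT20 and 0.471% at CT24. The order below was found for 0.183%, 0.471%, 0.448%, 0.3%, 1.58% and 0.524%. The libraries of a time may share animals across tissues, and the CT8 order uses the cerebellum library set apart above. Some of these orders were near ties, since the lowest SD and the highest CON library of Per1 in liver at CT8 were both at 4.04 CPM when rounded, and those of Ciart in kidney at CT24 were at 1.36 and 1.32 CPM.

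The values of Ciart at CT16 were as follows. In liver it was at 16.1 and 15.4 CPM in CON and at 7.49 and 7.40 CPM in SD. In kidney it was at 9.57 and 10.4 CPM in CON and at 5.42 and 5.13 CPM in SD, and in forebrain at 14.4 and 17.9 CPM in CON and at 8.63 and 9.69 CPM in SD. In cerebellum the values were 13.9 and 10.1 CPM against 8.94 and 7.88 CPM. The log2 differences were -0.93 ± 0.47 in liver (adjusted p = 0.393 in edgeR), -0.95 ± 0.47 in kidney (0.777), -0.88 ± 0.23 in forebrain (0.302) and -0.51 ± 0.20 in cerebellum (1.0). Each SD library lay below each CON library in every tissue, and none of the 4 differences passed the correction.

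Per1 at CT24 went the other way. In liver it was at 21.1 and 21.5 CPM in CON and at 54.2 and 45.8 CPM in SD. In kidney it was at 24.4 and 27.9 CPM in CON and at 53.8 and 71.9 CPM in SD. In forebrain the values were 86.0 and 97.7 CPM against 132 and 136 CPM, and in cerebellum 85 and 89.5 CPM against 112 and 118 CPM. The log2 differences were 1.36 ± 0.38 in liver (adjusted p = 0.108 in edgeR), 1.25 ± 0.33 in kidney (0.130), 0.55 ± 0.20 in forebrain (1.0) and 0.39 ± 0.13 in cerebellum (1.0). Ciart at CT24 was at 1.92 and 1.65 CPM in CON liver and 2.48 and 2.71 CPM in SD liver, and at 9.28 and 9.68 CPM in CON forebrain and 13.9 and 17.1 CPM in SD forebrain.

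**Figure D5:**
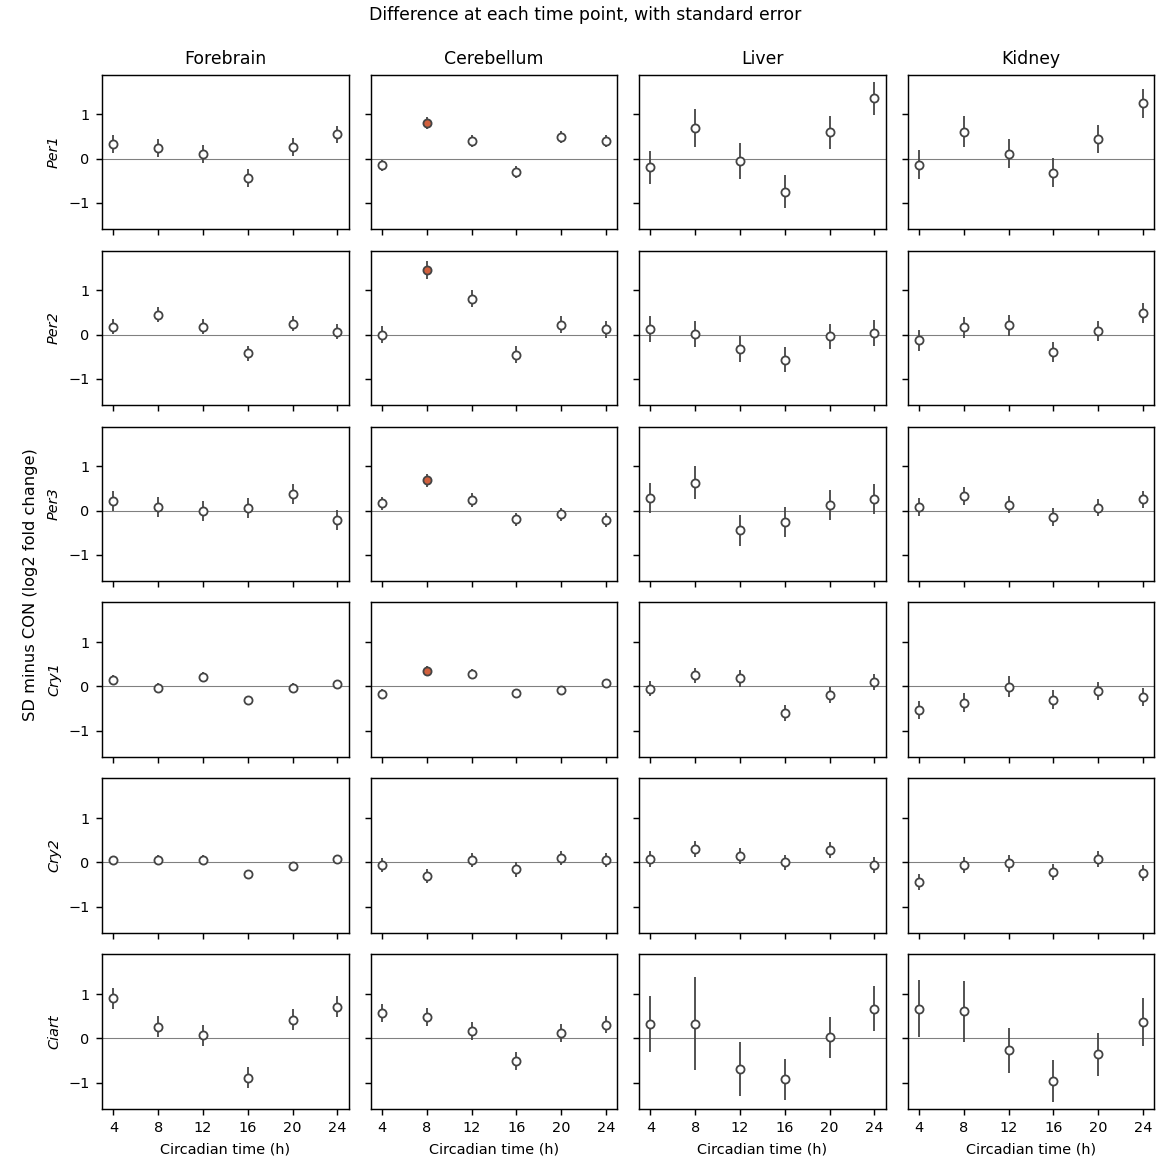
Log2 difference of SD minus CON for each member at each circadian time in h, by tissue, with the standard error from edgeR. Filled points passed at an adjusted p under 0.05, which only Per1, Per2, Per3 and Cry1 in cerebellum at CT8 did. Ciart lies below 0 at CT16 in all 4 tissues, from -0.95 to -0.51, and Per1 lies above 0 at CT24, from 0.39 to 1.36.

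Last, the shape of the rhythm was compared between conditions. The edgeR test of the cosine and sine terms called 0 of 6 members in each tissue, beside 0.0% of genes in all 4 tissues, and DESeq2 called 0 as well. At an unadjusted p under 0.05 there were 2 members in forebrain, 3 in cerebellum, 0 in liver and 1 in kidney. Over all genes such p-values came to 1390 of 23078, 2248 of 22218, 722 of 19708 and 874 of 21528. Ciart had the smallest member p in forebrain (0.000587, adjusted 0.820), in cerebellum (0.00295, adjusted 0.454), in kidney (0.0373, adjusted 0.999) and in liver (0.137, adjusted 1.0). Without the filter on low counts, 3 members passed in liver, namely Per1, Per3 and Ciart, beside 409 of 32589 genes.

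Peak times from the cosine fits are given with their intervals and no p. Forebrain Ciart peaked at CT18.11 in CON and CT21.62 in SD, 3.51 h later (1.71 to 5.30). Cerebellum Ciart peaked at CT19.56 in CON and CT21.82 in SD, 2.26 h later (1.14 to 3.38), and 2.23 h later (1.18 to 3.28) without CON CT8 replicate 1. Forebrain Per1 peaked 4.01 h later (0.68 to 7.34) and cerebellum Per2 2.27 h later (0.31 to 4.24), the latter 1.92 h (-0.05 to 3.89) without that library. Cerebellum Cry1 was 3.28 h later (0.25 to 6.31), or 2.44 h (-0.49 to 5.36) without it, and forebrain Cry2, with a swing of 0.15 in CON and 0.18 in SD, was 5.79 h later (1.27 to 10.3). In liver and kidney all 12 intervals included 0, among them Ciart in liver, 0.99 h later (-0.43 to 2.41), and Ciart in kidney, 0.58 h later (-1.04 to 2.20). Of all 24 comparisons 6 intervals left out 0, and in 19 the SD peak was the later one. Without the cerebellum library, the intervals of cerebellum Per2 and Cry1 included 0, and the cerebellum Cry2 difference went from -1.02 to 1.75 h. The members of a tissue share libraries, so the 24 comparisons are not independent, and the share over all genes was not computed. Forebrain Cry2, among the 6, had a CON swing whose interval included 0, so its peak time is uncertain.

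For the swings the share over all genes was likewise not computed. Of 24 intervals of the difference, 2 left out 0, both in cerebellum, where the test above called neither gene. The swing of Per3 there went from 1.18 in CON to 0.30 in SD, a difference of -0.88 (-1.39 to -0.36), or -0.60 (-0.93 to -0.27) without CON CT8 replicate 1. That of Ciart went from 1.67 to 1.15, a difference of -0.52 (-0.93 to -0.11), or -0.64 (-1.04 to -0.23) without that library. In kidney, the swing of Ciart went from 4.40 to 3.02, a difference of -1.39 with an interval of -2.85 to 0.07. The distance from Ciart to Cry1 under sleep deprivation was 4.31 h (1.59 to 7.04) in forebrain, 6.46 h (3.68 to 9.25) in cerebellum, 7.17 h (5.97 to 8.37) in liver and 7.07 h (5.31 to 8.82) in kidney, with Cry1 after Ciart in each.

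The other genes of the pathway were read from the same edgeR fits. Averaged over time, 5 of 34 tested pathway genes passed in liver and 0 of 35 in each other tissue. Among the E-box targets and output factors, 2 of 6 tested rose in SD liver, the D-box factors Tef at 0.25 ± 0.08 (adjusted p = 0.0413) and Hlf at 0.21 ± 0.06 (adjusted p = 0.0111). Among the signalling inputs to Per1, 2 of 9 fell, the immediate early genes Fos at -0.91 ± 0.26 (adjusted p = 0.0160) and Nr4a1 at -0.70 ± 0.16 (adjusted p = 0.00285). Among the 9 kinases, ligases and deubiquitinase that act on PER and CRY proteins, casein kinase Csnk1e fell by 0.22 ± 0.07 on the log2 scale (adjusted p = 0.0210). These 5 genes stand beside the 18.2% of liver genes called. The median liver difference was 0.13 over the 6 E-box targets and output factors, 0.00 over the 9 signalling genes and 0.07 over the 9 kinases and related genes, beside 0.01 over all genes.

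The 3 activators, the 3 complex partners and the nuclear receptors had 0 calls in the level test in all tissues, and in the joint test over time the one pathway call was Nr4a1 in liver (adjusted p = 0.0399 in edgeR). At single times, the receptor gene Rora was higher in SD forebrain at CT20, by 0.69 ± 0.15 (adjusted p = 0.0383). In cerebellum at CT8, where the limits above apply, the repressor gene Nr1d2 at 0.32 ± 0.09 and Tef at 0.48 ± 0.11 were higher, and the activity-linked gene Egr1 at -0.80 ± 0.23 was lower (adjusted p = 0.0371, 0.0305 and 0.0393 in edgeR). The cosinor test called 14 of 34 pathway genes in CON liver and 16 in SD liver, beside 11.7% and 13.8% of all genes. In kidney it called 16 and 18 of 35, beside 4.51% and 4.73%. It called 3 and 1 in forebrain, beside 1.59% and 0.039%, and 8 and 2 in cerebellum, beside 0.257% and 0.018%. All 3 activators passed in liver and kidney in both conditions. Of the 6 E-box targets and output factors tested, 5 passed in liver in each condition, 6 in kidney in each condition, 4 in CON and 0 in SD cerebellum, and 1 in CON and 0 in SD forebrain, whereas 0 of the 3 complex partners did in any tissue. Dbp, a D-box factor in the list, did not pass the filter in any tissue. It had at most 5 reads, or 0.125 CPM, in a library. Whether low expression or a loss of its reads in counting lay behind this was not tested.

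The genes whose pattern was most like that of each member were found from log2(CPM + 0.1), centred within each tissue, over the 96 libraries and 16981 genes kept in all tissues. The points share libraries, tissues and time of day, so the correlations are a description. Per3 ran with Tef (r = 0.96) and with Ciart (r = 0.92), and Ciart in turn with Tef (r = 0.92) and Coq10b (r = 0.87). Per1 was most like the deubiquitinase gene Usp2 (r = 0.89), Tef (r = 0.86) and Per3 (r = 0.86). Per2 was most like Maco1 (r = 0.83), Per1 (r = 0.82) and the cell cycle kinase gene Wee1 (r = 0.80).

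The CRY genes had other neighbours. Cry1 was most like Lonrf3 (r = 0.84), Ahctf1 (r = 0.77) and the chaperone gene Hyou1 (r = 0.76), and among the genes most like Cry2 were Per2 (r = 0.70) and Wee1 (r = 0.68). Within single tissues the likeness varied, as with Per3 and Tef at 0.99 in liver, 0.97 in kidney, 0.94 in cerebellum and 0.24 in forebrain. Per3 lies inside Camta1 on the same strand with 0 bp of shared exon, and since total RNA holds unspliced transcripts, reads of Camta1, which reached 513 CPM, could fall on Per3, a part that was not tested. Cry2 shares 295 bp of exon with the antisense gene D930015M05Rik, which reached 19.3 CPM, and Ciart shares 0 bp of exon with the antisense gene C920021L13Rik.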

How the data were processed

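Total RNA was sequenced from forebrain, cerebellum, liver and kidney of CON and SD mice. Per the labels and the study's methods, the authors trimmed the reads with Trim Galore, aligned them to the mouse genome GRCm38 with HISAT2, kept reads of high mapping quality with SAMtools and counted them per gene by strand with featureCounts. What was deposited is a raw count for each gene in each library, neither normalized nor pooled. Groups were taken from the sample titles. The 6 members and the gene lists were chosen with earlier results of these data known.

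Within each tissue (24 libraries), counts were filtered with filterByExpr, scaled by TMM and tested by quasi-likelihood in edgeR (4.0.16, R 4.3.3), with Benjamini-Hochberg adjustment over all genes kept and a threshold of 0.05. The level test used condition and time as additive terms, the joint and single-time tests used the 12 group means, and the cosinor test used a 24 h cosine and sine in each condition. Tissues were compared over the 48 CON libraries. The standard error of a log2 difference was its size divided by the square root of its F statistic. JTK_CYCLE was run in Python (3.11.15, numpy 2.4.6, pandas 2.3.3, scipy 1.17.1) with its exact null distribution on CPM. Peak times and swings came from least-squares cosines on log2(CPM + 0.1), with 95% intervals on 9 residual degrees of freedom. Likeness was Pearson's r.

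Depth was 24.8 to 30.9 M counts in cerebellum, 29.0 to 48.0 M in forebrain, 32.0 to 48.9 M in liver and 32.2 to 58.5 M in kidney, and levels of a few reads, such as liver Ciart at CT8, are imprecise by counting alone. Alternatives were DESeq2 (1.42.0), library sizes alone, no filter, a replicate block and leaving out each library or replicate. The edgeR tests within a tissue were tried on simulated liver counts. Named genes were the 6 members, the 3 most alike genes of each (1 of them is not reported here), and genes of the pathway lists that passed the level, joint or rhythm difference test. Rora, Nr1d2 and Egr1, and Tef in cerebellum, which passed at single times only, as well as Dbp and Arntl, were named after their values were seen.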

Additional observations from a re-analysis of the deposited data

Results flagged for a closer look

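The rhythm of 13 combinations of member and tissue pair differed in undisturbed mice, by the test of the difference in cosine and sine terms between tissues in edgeR. The values are the size of that difference from trough to peak in log2. Between forebrain and liver they were 1.76 for Per2, 3.34 for Per3, 2.55 for Cry1 and 4.10 for Ciart. Between forebrain and kidney they were 2.13 for Per3, 2.26 for Cry1 and 3.04 for Ciart. Between cerebellum and liver they were 2.58 for Per3, 2.26 for Cry1 and 4.24 for Ciart, and between cerebellum and kidney they were 2.0 for Cry1, 0.981 for Cry2 and 3.52 for Ciart. Cry1 and Ciart were in all 4 of these pairs of a brain tissue and a peripheral one. Groups of 2 libraries were too small to look for a far library by the member values within a group. The cerebellum CON library CT8 replicate 1 stood apart by its antisense share. Without it, the sizes between forebrain and kidney were 1.53 for Per2 and 0.92 for Cry2, which then passed as well. The share of all genes called in that fit is not given here.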

How the results depend on the processing

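Of 188 counts and peak distances under other settings, 155 stayed near the reported value. For counts this meant within 1.5 times, and for the hours from Ciart to Cry1 within the standard error. Of 888 member values 776 kept their direction and side of the threshold or moved by less than the spread. Leaving out libraries, 6992 of 7200 member values did so. The cause of each change was not tested.

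Without a filter on low counts, the members called at the 6 times together were 2 in forebrain (beside 729 of 39470 genes), 3 in cerebellum (3552 of 37212), 5 in liver (2873 of 32589) and 6 in kidney (2705 of 36128), those called on level were 1 in liver and 2 in kidney, and 3 passed the rhythm difference in liver. Single-time calls were then 8 in liver and 8 in kidney. Cosinor calls were 2 in SD forebrain, beside 36 of 39470 genes, and 5 in CON cerebellum, beside 1182 of 37212. JTK_CYCLE called 0 members in CON kidney, as it did on TMM-scaled CPM, and 0 of all genes passed there in either setting. With DESeq2, the 6 times together gave 1 in forebrain and 4 in cerebellum, and the cosinor test gave 3 in SD forebrain, 5 in CON and 2 in SD cerebellum. Library sizes alone gave 2 in SD forebrain, beside 10 of 23078 genes.

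The replicate numbers gave no clear sign of pairing. The difference between the replicates of a group was correlated between CON and SD from -0.32 to 0.41, with 7 of 24 values above 0.1. Between tissues it exceeded 0.1 in 6 of 72, and was highest at 0.38, between liver and kidney in SD at CT16. These correlations cannot settle whether tissues of the same number came from the same mouse. With the replicate block, the cosinor test called 0 in SD forebrain, beside 8 of 23078 genes, and the 6 times together 1 in cerebellum, beside 1 of 22218. The tissue rhythm test then called 5 between forebrain and kidney and 5 between cerebellum and liver, for which the share of all genes is not given here.

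By the time with the highest mean, Cry1 followed Ciart by 8 h in CON forebrain, CON cerebellum and SD kidney, by 4 h in SD cerebellum and by 12 h in CON and SD liver. With a cosine on linear CPM it followed by 9.19 h in CON and 8.30 h in SD liver. By longest transcript, 2 members kept their rank in cerebellum and 2 in kidney.

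Library sizes alone turned the sign of the liver level difference of Per3 (-0.044) and Cry2 (-0.016), of Per2 between forebrain and liver (0.14), cerebellum and liver (0.43) and liver and kidney (-0.020), and of Ciart between liver and kidney (-0.0051). Without the filter, Per2 between forebrain and kidney was -0.00188.

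Leaving out 1 library at a time, cosinor calls ran from 0 to 2 in SD forebrain and 0 to 2 in SD cerebellum, calls at the 6 times together from 0 to 6 in cerebellum, and single-time calls from 0 to 5 in cerebellum and 0 to 1 in liver. Level calls ran from 0 to 1 in kidney, and tissue rhythm calls from 3 to 5 between forebrain and kidney, 3 to 5 between cerebellum and liver and 0 to 2 between liver and kidney. The share of all genes called is not given beside these ranges, so they are no result about the members. With either replicate left out, JTK_CYCLE could call no gene, since its smallest possible p was then 0.0667. Level differences near 0 also changed sign, namely Cry1 (-0.0101 to 0.0386) and Cry2 (-0.0353 to 0.00303) in forebrain, Cry2 in cerebellum (-0.0768 to 0.0211, the latter without CON CT8 replicate 1), Ciart in liver (-0.201 to 0.0377), Per2 in kidney (-0.00394 to 0.116) and Per3 between liver and kidney (-0.143 to 0.0485). With 2 libraries a group, differences at a single time rest on few values, and liver Ciart at CT8 rests on 1 to 9 reads a library.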
